A study of Homo sapiens with 8 samples.

Results

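The ETS genes studied here are ERG, FLI1, ETS1, ETS2, ETV6, ELF1, ELF2, ELF4, GABPA and SPI1. The rule that chose them lists symbols and uses no measured value, and all 10 were found among the 64252 genes of each count table. RNA sequencing was performed on 6T-CEM and J.gamma1 cells carrying a control shRNA (sh-NC, labelled shControl) or an shRNA against LDB1 (sh-LDB1), with 2 libraries in each of 4 groups and 8 libraries in all. Both lines derive from T-cell acute lymphoblastic leukemia (T-ALL): 6T-CEM is a thioguanine-resistant derivative of CCRF-CEM, and J.gamma1 is a derivative of Jurkat that lacks phospholipase C gamma 1. The study delivered its shRNAs by virus and selected infected cells with puromycin, in control and knockdown cells alike, and which LDB1 hairpin was sequenced is not named in the sources used here. Each line is one established culture, and nothing states that the 2 libraries of a group came from separate cultures, so p-values measure only the spread between libraries, which may be technical.

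ETS proteins share a winged helix-turn-helix DNA-binding domain that reads a short purine-rich core in enhancers and promoters. Most members activate transcription, while others, such as ETV6 and ERF, repress it, and since many can read the same sites, the proportions of the members in a cell are of interest. ETS1 and ELF1 are abundant in T-lineage cells, ERG, FLI1 and ETV6 act in blood stem and progenitor cells, GABPA serves promoters of housekeeping and mitochondrial genes, and SPI1 (PU.1) drives myeloid and B-cell development. LDB1 is a non-DNA-binding cofactor that joins enhancer complexes, through LIM-domain and other partners, to promoters. The comparisons ask how much of each member these cells contained, whether the knockdown shifted it in each line, and whether relatives moved together.

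Total counts per library lay between 26160492 and 30604977. LDB1 itself was lower after the knockdown in both lines. It gave 2777 and 2996 counts in 6T-CEM sh-NC against 1078 and 1000 in sh-LDB1, and 1909 and 1854 against 929 and 906 in J.gamma1. The log2 fold change was -1.60 ± 0.07 (SE; adjusted p = 1.02e-09) in 6T-CEM and -0.89 ± 0.08 (adjusted p = 3.68e-06) in J.gamma1, by the quasi-likelihood test of edgeR, with p-values adjusted by Benjamini and Hochberg's method over every tested gene, as used throughout. The fold change of LDB1 therefore differed between the lines by 0.70 ± 0.09 on the log2 scale (adjusted p = 2.37e-04). Its level in J.gamma1 against 6T-CEM differed by -0.87 ± 0.07 in control cells (log2, adjusted p = 1.58e-07). In knockdown cells that difference was -0.17 ± 0.07 (adjusted p = 0.0488). All 8 T-cell markers had counts in every library, although CD2 held only 9 to 14 counts per library in 6T-CEM. Their summed level was 1462 to 1515 CPM (counts scaled to the TMM-normalized library size) in 6T-CEM sh-NC, 1885 to 1919 in 6T-CEM sh-LDB1, 1886 to 1933 in J.gamma1 sh-NC and 2325 to 2386 in J.gamma1 sh-LDB1. The marker sum thus moved with the knockdown in both lines, although the markers did not move as one: 4 were called higher and 1 lower (CD5) in 6T-CEM, 4 higher and 2 lower (CD3D and LCK) in J.gamma1, and CD2 was called in neither line. Of the 8 markers, 62.5% thus passed for 6T-CEM, against a rate of 31.3% over every gene tested in that line. J.gamma1 had 75% of the markers passing, against a rate of 51.5%. Whether these shares differ from the rates was not tested. The part of the marker changes in the results that follow was not tested either. In bulk RNA, fewer cells of a type and less RNA per cell cannot be told apart.

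Sequence around the start sites is shown for GABPA, ERG and ETS2. Their RefSeq promoter windows (GRCh38.p14, 250 bases before to 50 after an annotated start) held a searched motif. Windows of ELF1 and ELF4 held one as well, and their sequence is not shown. Of the 10 members, 7 had a promoter window, with 16 windows between them. The motifs, in capitals, are the ETS letters CCGGAAG, the GATA letters AGATAA and the RUNX letters TGTGGT, each searched on both strands, and they were picked after values had been seen. No motif contains another.
GABPA, 21:25734895-25734924, plus strand, ETS letters read on the other strand: cctccgctctaCTTCCGGccctggctccgc
ERG, 21:38498569-38498598, minus strand, GATA letters read on the other strand: tttcagggtctcTTATCTctccactcccaa
ETS2, 21:38804972-38805001, plus strand, GATA letters: ggtttcggagtcAGATAAactcaggtttcc
ETS2, 21:38804933-38804962, plus strand, RUNX letters read on the other strand: aaaaacggaaACCACAgtgtagggggtggt
The ETS letters were present in 1 of the 16 member windows (GABPA) and in 10.3% of the 35116 windows of all genes. The GATA letters were in 4 of 16 (ERG in a pair of overlapping windows, ELF1 and ETS2) against 10.3% of all, and the RUNX letters in 2 of 16 (ETS2 and ELF4) against 13.1%. These matches describe letters in short windows and are not binding sites.

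ERG, ETS1 and ETV6 fell in both lines, and no other member was called lower in both. In 6T-CEM, 5 members were lower (ERG, ETS1, ETS2, ETV6 and SPI1), 1 was higher (ELF2) and 4 did not pass the test (FLI1, ELF1, ELF4 and GABPA). Over the 16059 genes tested in 6T-CEM, 16.2% were called lower, 15.1% higher and 31.3% either way at an adjusted p under 0.05. In J.gamma1, 3 were lower (ERG, ETS1 and ETV6), 5 were higher (FLI1, ETS2, ELF1, ELF4 and GABPA), ELF2 did not pass the test and SPI1, with no counts, was not tested. Over the 17215 genes tested in J.gamma1, 26.5% were called lower, 25.0% higher and 51.5% either way, so that the 8 of 9 members called stand against a background in which more genes passed than did not. Changes beyond 1 on the log2 scale were found for ERG and SPI1 in 6T-CEM, where 2.39% of all genes fell that far, and for ERG in J.gamma1, where 7.19% did. The median log2 change of the members was -0.14 in 6T-CEM (10 members) and 0.18 in J.gamma1 (9 members), beside 0.00 over all genes in each line. ETS2 was lower in one line and higher in the other.

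**Figure D1:**
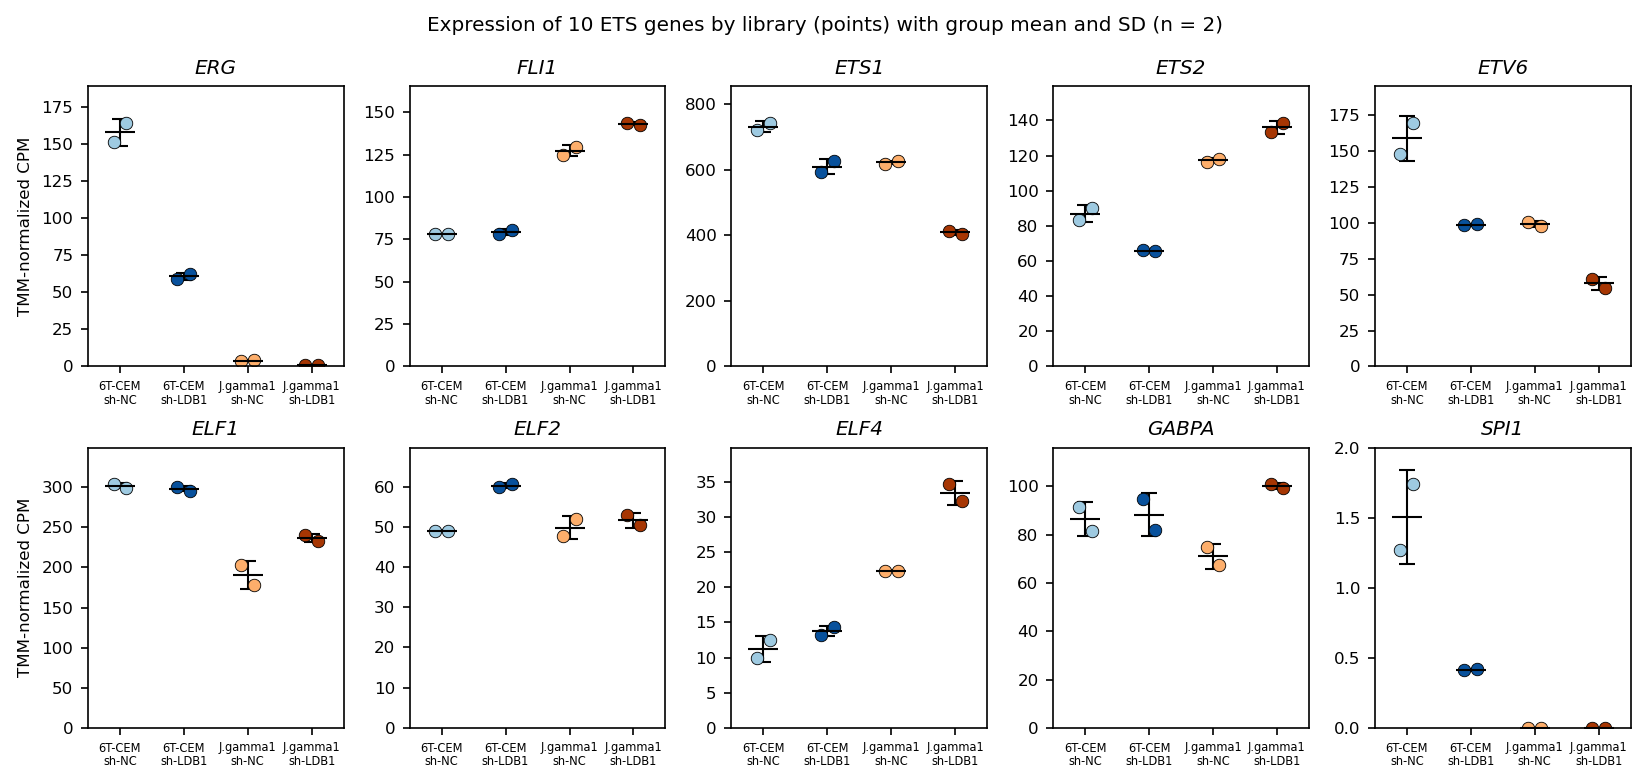
TMM-normalized CPM (vertical axis, linear from 0) of each ETS gene in the 4 groups (horizontal axis); points are libraries, and bars give the group mean and SD (n = 2). ERG spans 0.849 to 164 CPM across the libraries, while FLI1 spans 78.1 to 144 CPM.

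ERG, a factor needed by blood stem cells and an oncogene in leukemia, showed the largest change among the members tested in both lines. In 6T-CEM it gave 3928 and 4430 counts in sh-NC and 1720 and 1783 in sh-LDB1 (151 and 164 CPM against 59.0 and 62.4 CPM). Both knockdown libraries stood well under both control libraries. The log2 fold change was -1.37 ± 0.07 (95% CI -1.52 to -1.23, adjusted p = 3.64e-09), which left 38.6% of the control level. J.gamma1 held little ERG to begin with, 120 and 132 counts in sh-NC and 29 and 25 in sh-LDB1 (3.78 and 4.19 CPM against 1.04 and 0.849 CPM). There the log2 fold change was -2.07 ± 0.28 (95% CI -2.68 to -1.46, adjusted p = 1.06e-04), or 23.8% of control. The wider interval goes with the low counts. The difference between the changes was -0.70 ± 0.18 on the log2 scale (adjusted p = 0.0138), and it missed the threshold without J.gamma1 sh-NC replicate 2 (-0.63, adjusted p = 0.0537) and without J.gamma1 sh-LDB1 replicate 2 (-0.56, adjusted p = 0.134).

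Between the lines ERG differed far more than it did after the knockdown. In sh-NC cells its level in J.gamma1 was lower than in 6T-CEM by 5.31 ± 0.09 on the log2 scale (6T-CEM 39.6-fold higher, adjusted p = 2.33e-12). The knockdown cells of 6T-CEM still held 60.7 CPM on average, far above the 3.98 CPM of untargeted J.gamma1 cells. Its order was therefore 6T-CEM sh-NC, 6T-CEM sh-LDB1, J.gamma1 sh-NC and J.gamma1 sh-LDB1, with no overlap between neighbours.

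FLI1, the closest relative of ERG and a regulator of megakaryocyte and endothelial genes, did not follow it. In 6T-CEM it gave 2029 and 2103 counts in sh-NC and 2282 and 2303 in sh-LDB1, or 78.1 and 78.1 CPM against 78.3 and 80.5 CPM. The 4 libraries lay close together. The log2 fold change was 0.03 (95% CI -0.11 to 0.17, adjusted p = 0.792), an interval that leaves room for only small changes. In J.gamma1 it rose slightly, from 125 and 130 CPM to 144 and 143 CPM, a log2 change of 0.18 ± 0.05 (adjusted p = 0.0116). That call was lost with DESeq2 (adjusted p = 0.0651) and without J.gamma1 sh-NC replicate 1 (adjusted p = 0.0844). The difference between the changes was 0.15 (95% CI -0.01 to 0.30, adjusted p = 0.167). FLI1 shares 162 exon bases with the antisense RNA SENCR, which held 12 to 64 counts per library, and 167 with ENSG00000245008, which held at most 6.

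The ratio of ERG to FLI1, computed per exon length from GENCODE 44, shows both relatives at once. The 6T-CEM control libraries gave 2.05 and 2.23 and the knockdown libraries 0.799 and 0.821, so that the more abundant of the pair changed. In J.gamma1 the ratio was 0.0321 and 0.0342 in sh-NC and 0.00764 and 0.00631 in sh-LDB1. FLI1 was the dominant one there in all 4 libraries.

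ETS1, the founding T-lineage member, was the most abundant ETS gene per length in every group. In 6T-CEM its counts were 18691 and 20035 in sh-NC and 17290 and 17903 in sh-LDB1 (719 and 744 CPM against 593 and 626 CPM). In J.gamma1 they were 19638 and 19712 in sh-NC and 11590 and 11901 in sh-LDB1 (619 and 625 CPM against 414 and 404 CPM). The groups did not overlap within either line. The log2 change was -0.26 ± 0.05 in 6T-CEM (adjusted p = 0.00183) and -0.60 ± 0.04 in J.gamma1 (adjusted p = 9.36e-07). The fall was deeper in J.gamma1 by 0.34 ± 0.06 (adjusted p = 0.00156), in the line where the fold change of LDB1 was smaller. J.gamma1 started with less LDB1 (59.5 against 109 CPM in sh-NC) and ended slightly below 6T-CEM (32.0 against 36.0 CPM in sh-LDB1). ETS1 in 6T-CEM sh-LDB1 and in J.gamma1 sh-NC overlapped.

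ETS2, a relative of ETS1 that responds to growth-factor signalling, moved in opposite directions. It gave 83.5 and 90.3 CPM in 6T-CEM sh-NC and 66.2 and 65.4 CPM in sh-LDB1, whereas J.gamma1 gave 117 and 118 CPM in sh-NC and 133 and 139 CPM in sh-LDB1. The 4 groups did not overlap. Its log2 change was -0.40 ± 0.07 in 6T-CEM (adjusted p = 5.03e-04) and 0.22 ± 0.05 in J.gamma1 (adjusted p = 0.00372), and the difference, 0.61 ± 0.08, passed the test (adjusted p = 1.74e-04). ETS2 shares 112 exon bases with ENSG00000205622, which held at most 10 counts per library.

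ETV6, a repressor needed for blood stem cells and often rearranged in leukemia, fell by like amounts in both lines. Its counts were 3840 and 4578 in 6T-CEM sh-NC and 2866 and 2841 in sh-LDB1 (148 and 170 CPM against 98.3 and 99.4 CPM). J.gamma1 gave 3196 and 3083 in sh-NC and 1712 and 1604 in sh-LDB1 (101 and 97.8 CPM against 61.2 and 54.5 CPM). The log2 change was -0.68 ± 0.07 (adjusted p = 5.63e-06) and -0.77 ± 0.07 (adjusted p = 5.18e-06), respectively. The difference was -0.09, with a 95% CI of -0.32 to 0.13 (adjusted p = 0.581). The level in 6T-CEM after the knockdown overlapped that in J.gamma1 control cells.

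The ELF genes and GABPA moved upward where they moved. ELF1, a lymphoid activator, gave 304 and 300 CPM in 6T-CEM sh-NC against 300 and 296 CPM in sh-LDB1, groups that overlapped (log2 change -0.01, 95% CI -0.12 to 0.10, adjusted p = 0.871). In J.gamma1 it rose from 203 and 179 CPM to 240 and 233 CPM, by 0.31 ± 0.06 (adjusted p = 0.00215). The difference between the lines was 0.33 ± 0.08 (adjusted p = 0.0111). ELF2, a widely expressed relative of ELF1, rose from 49.0 and 48.8 CPM to 59.8 and 60.6 CPM in 6T-CEM, by 0.30 ± 0.07 (adjusted p = 0.00524). In J.gamma1 its groups overlapped, at 47.7 and 51.9 CPM against 52.9 and 50.3 CPM (log2 change 0.06, 95% CI -0.11 to 0.22, adjusted p = 0.556). The difference for ELF2 was -0.25 (95% CI -0.46 to -0.04) with an adjusted p of 0.0829.

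ELF4, which restrains the proliferation of CD8+ T cells, rose in J.gamma1 and did not pass in 6T-CEM. It gave 257 and 336 counts in 6T-CEM sh-NC and 386 and 409 in sh-LDB1 (9.89 and 12.5 CPM against 13.2 and 14.3 CPM). The control libraries differed from each other by more than the nearest control and knockdown libraries did, and the log2 change of 0.30 (95% CI -0.02 to 0.63) did not pass (adjusted p = 0.150). In J.gamma1 it rose from 22.4 and 22.3 CPM to 34.7 and 32.2 CPM, by 0.59 ± 0.08 (adjusted p = 1.67e-04). The difference between the lines, 0.28, was not resolved (95% CI -0.09 to 0.65, adjusted p = 0.262).

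GABPA, the DNA-binding subunit of GA-binding protein, gave 91.5 and 81.4 CPM in 6T-CEM sh-NC and 94.7 and 81.9 CPM in sh-LDB1. The groups overlapped almost entirely (log2 change 0.03, 95% CI -0.14 to 0.21, adjusted p = 0.799). In J.gamma1 it rose from 74.7 and 67.4 CPM to 101 and 99.3 CPM, by 0.50 ± 0.06 (adjusted p = 7.00e-05). The difference was 0.46 ± 0.12 (adjusted p = 0.0125), and it missed the threshold without 6T-CEM sh-NC replicate 1 (adjusted p = 0.0513) or J.gamma1 sh-NC replicate 2 (adjusted p = 0.0551). GABPA shares 692 exon bases with ATP5PF on the other strand, a mitochondrial ATP synthase gene with 2477 to 3297 counts per library, and whether counting used the strand is not stated. ATP5PF itself changed by 0.02 in 6T-CEM (adjusted p = 0.837) and 0.10 in J.gamma1 (adjusted p = 0.220). GABPA is the member whose promoter window held the ETS letters.

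SPI1 had counts in 6T-CEM and none in J.gamma1. It gave 33 and 47 counts in sh-NC and 12 and 12 in sh-LDB1 (1.27 and 1.74 CPM against 0.412 and 0.420 CPM), and 0 counts in all 4 J.gamma1 libraries. The log2 change in 6T-CEM was -1.84 ± 0.45 (adjusted p = 0.00616). The call was lost with DESeq2 (adjusted p = 0.0597) and without 6T-CEM sh-NC replicate 2 (adjusted p = 0.0915). In sh-NC cells SPI1 was at least 15.9-fold higher in 6T-CEM than in J.gamma1, taking 3 counts per library as the limit that a count of 0 allows. In 6T-CEM the 8 myeloid markers summed to 1.85 to 2.41 CPM in sh-NC and 1.82 to 3.02 CPM in sh-LDB1, with FCGR1A at 0 in both groups and MPO at 9 and 8 counts against 38 and 32. The 6 B-cell markers summed to 34.0 to 34.7 CPM and 43.1 to 46.4 CPM, with MS4A1 and EBF1 at 0. The myeloid ranges overlapped, although MPO was called higher. The B-cell sum was higher in both knockdown libraries than in both controls. That rise was in CD79A (mean 23.3 to 38.9 CPM, called higher). CD79B fell (7.93 to 3.98 CPM, called lower), and PAX5 was not called. In J.gamma1, which had no SPI1 counts, the myeloid sum was 9.58 to 12.3 CPM in sh-NC and 10.1 to 10.8 CPM in sh-LDB1. Most of it was CEBPA (mean 10.4 and 9.58 CPM). The B-cell sum there was 72.9 to 74.4 CPM and 84.4 to 84.7 CPM, with CD79A and EBF1 called higher and CD79B not called.

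**Figure D2:**
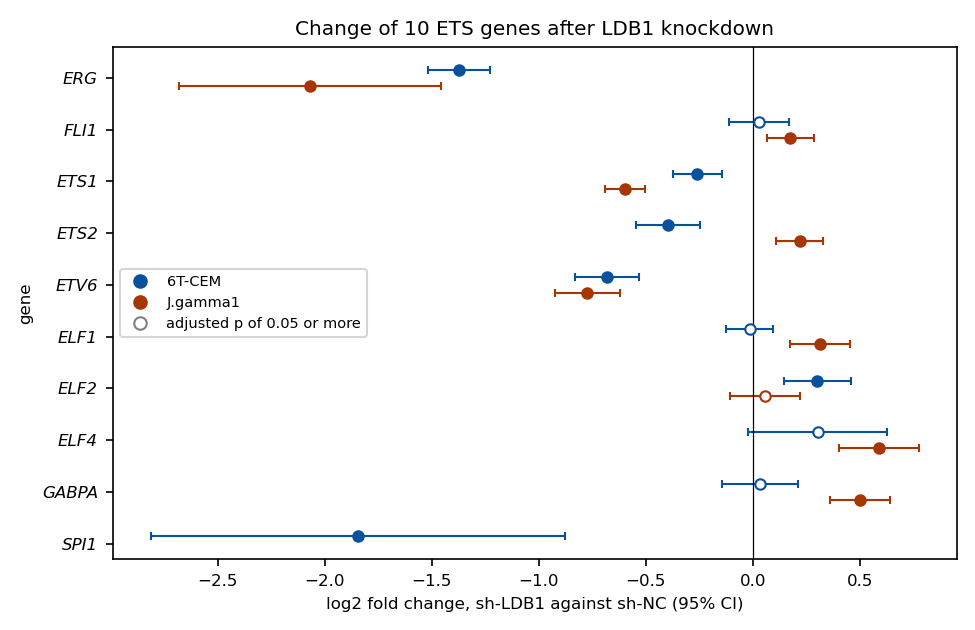
Log2 fold change of sh-LDB1 against sh-NC (horizontal axis) for each ETS gene (vertical axis) in 6T-CEM (blue) and J.gamma1 (orange-brown), with 95% confidence intervals. Open circles did not pass the test, and SPI1 was not tested in J.gamma1. ERG lies at -1.37 and -2.07, and ETS2 is the member called on both sides of 0.

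The differences between the lines were tested for the 9 members with counts in both. The change was more positive in J.gamma1 for 3 members (ETS2, ELF1 and GABPA), more negative for 2 (ERG and ETS1), and 4 did not pass (FLI1, ETV6, ELF2 and ELF4). Over 18552 genes, 12.0% passed in the first direction, 12.4% in the second and 24.4% in either. Before the knockdown, 8 of these 9 members differed between the lines, against 65.7% of all genes (34.6% higher in J.gamma1 and 31.1% lower). FLI1, ETS2 and ELF4 were higher in J.gamma1 control cells, by 0.71 ± 0.05, 0.43 ± 0.06 and 1.00 ± 0.12 on the log2 scale. ERG, ETS1, ETV6, ELF1 and GABPA were lower there, with differences of -5.31, -0.23, -0.68, -0.66 and -0.28. The call for GABPA was lost without 6T-CEM sh-NC replicate 1 (adjusted p = 0.0889) or J.gamma1 sh-NC replicate 2 (adjusted p = 0.0983). ELF2 differed by 0.03 (95% CI -0.12 to 0.17, adjusted p = 0.764).

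Levels per exon length, as FPKM (CPM divided by the exon length in kilobases), put the members on a common scale. In 6T-CEM sh-NC the order was ETS1 (102 ± 2.38 FPKM, SD, n = 2), ELF1 (67.9 ± 0.69), ETV6 (22.0 ± 2.16), ERG (20.9 ± 1.23), ETS2 (17.5 ± 0.97), GABPA (15.1 ± 1.25), FLI1 (9.73 ± 0.0045), ELF2 (5.72 ± 0.016), ELF4 (2.14 ± 0.35) and SPI1 (0.739 ± 0.16). ETV6 and ERG overlapped there, and the other neighbours did not. After the knockdown ERG stood in place 7 in 6T-CEM, at 8.02 ± 0.31 FPKM, below FLI1 at 9.89 ± 0.20 FPKM. In J.gamma1 sh-NC the order was ETS1 (87.0 ± 0.62 FPKM), ELF1 (43.0 ± 3.93), ETS2 (23.6 ± 0.23), FLI1 (15.9 ± 0.41), ETV6 (13.7 ± 0.29), GABPA (12.4 ± 0.89), ELF2 (5.82 ± 0.35), ELF4 (4.26 ± 0.015), ERG (0.526 ± 0.038) and SPI1 at 0. In J.gamma1 sh-LDB1, ETS1 (57.2 ± 1.00 FPKM) came close to ELF1 (53.3 ± 1.11 FPKM), and ELF4 and ELF2 overlapped. These closest placings depended on the length used. By the longest transcript, ETS1 stood at 78.1 FPKM in J.gamma1 sh-LDB1 against 64.3 FPKM for ELF1. ELF2 (12.9 FPKM) then lay above ELF4 (6.51 FPKM) there with no overlap. In 6T-CEM sh-NC the longest transcript put ERG (31.3 FPKM) above ETV6 (25.9 FPKM), also with no overlap.

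Summed over the 10 members, the level per length in 6T-CEM was 260 and 268 FPKM with sh-NC against 221 and 224 FPKM with sh-LDB1, and J.gamma1 gave 209 and 204 FPKM against 196 and 192 FPKM. Both sums were lower in both knockdown libraries than in both control libraries. ERG accounted for 7.68% and 8.12% of the sum in 6T-CEM sh-NC and 3.52% and 3.68% in sh-LDB1. Its share in J.gamma1 was under that of every member other than SPI1, at 0.239% and 0.271% in sh-NC. ETS1 went from 41.5% and 42.9% to 29.6% and 29.5% in J.gamma1, where ELF1 went from 21.9% and 19.7% to 27.6% and 27.4%. In 6T-CEM the share of ETS1 was 38.7% and 38.9% in sh-NC and 37.5% and 39.2% in sh-LDB1, groups that overlapped.

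**Figure D3:**
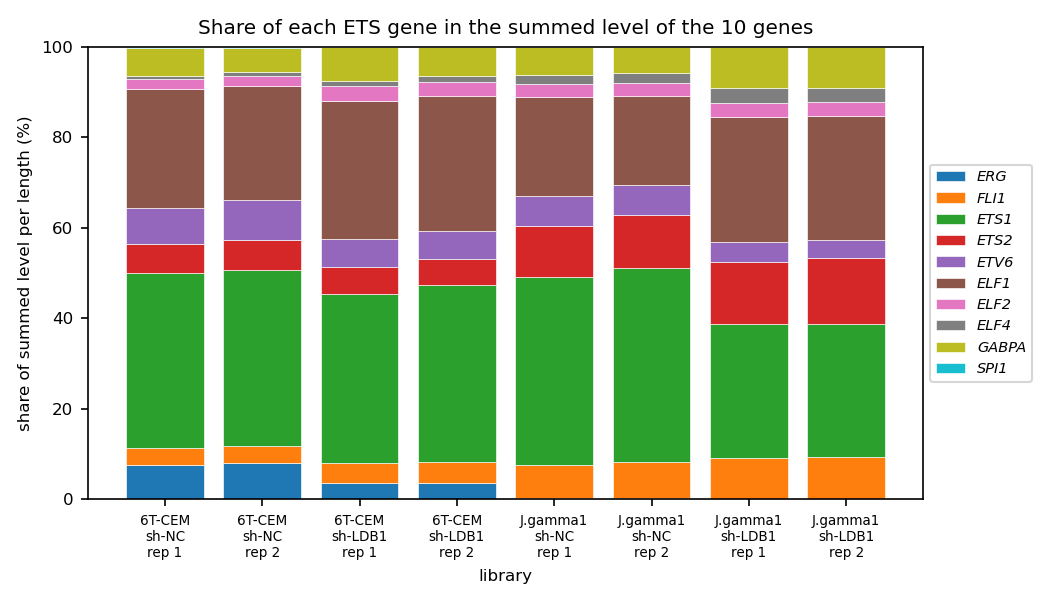
Stacked bars give the share (%, vertical axis) of each ETS gene in the summed level per exon length of the 10 genes, for each of the 8 libraries (horizontal axis). ETS1 and ELF1 make up the largest parts in every library, and ERG is visible only in 6T-CEM, where its mean share was 7.90% in sh-NC and 3.60% in sh-LDB1.

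The 18 other ETS genes extend the comparison to the rest of the family. In 6T-CEM 8 of them were tested, with 4 higher, 2 lower and 2 not called, and their median log2 change was 0.26. In J.gamma1 10 were tested, with 4 higher, 2 lower and 4 not called, and a median of 0.13. The 6T-CEM calls made up 75% of this list's tested genes, where 31.3% of all genes passed. For J.gamma1 the share was 60%, near the 51.5% of all genes, so the count alone says little there. Neither difference in share was tested. ETV3, ELK3, ELK4 and ERF were higher in both lines. ELK3, a ternary complex factor that binds beside SRF and can repress, rose from 520 and 524 counts to 1854 and 1791 in 6T-CEM, and from 604 and 563 to 1996 and 2226 in J.gamma1. These are log2 changes of 1.68 ± 0.08 (adjusted p = 3.55e-09) and 2.00 ± 0.08 (adjusted p = 1.41e-08). The rise of ERF, a repressor inactivated by ERK, was 0.57 ± 0.07 and 0.79 ± 0.06, that of ETV3, another repressor, 0.52 ± 0.09 and 0.31 ± 0.06, and that of ELK4 0.40 ± 0.07 and 0.53 ± 0.06.

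ETV5, a PEA3-group activator downstream of ERK, fell from 4831 and 5239 counts to 925 and 898 in 6T-CEM and from 2557 and 2527 to 124 and 100 in J.gamma1. The log2 changes were -2.59 ± 0.07 and -4.36 ± 0.11 (adjusted p = 1.86e-12 and 1.08e-09). It shares 164 exon bases with DGKG on the same strand, which changed by -0.99 in 6T-CEM and 0.81 in J.gamma1. Its relative ETV4 was at 21 and 32 counts in J.gamma1 sh-NC and 5 and 0 in sh-LDB1, and it was called lower there (adjusted p = 0.0102, and 0.0549 without J.gamma1 sh-LDB1 replicate 2) but was too low to be tested in 6T-CEM. It shares 68 exon bases with DHX8 (at least 2853 counts per library). SPIB, the closest relative of SPI1, had 28 and 25 counts in 6T-CEM sh-NC and 2 and 4 in sh-LDB1 (adjusted p = 0.00161). It shares 839 exon bases with ENSG00000142539, which held 0 counts in every library. In J.gamma1 SPIB had 25, 7, 22 and 21 counts and was not called (adjusted p = 0.459). ETV2 and ELK1 were called in neither line, ETV1 was tested in J.gamma1 only and not called, and 8 genes were tested in neither line.

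Taking both lists as one family of 28 genes, 4 were lower in both lines (ERG, ETS1, ETV6 and ETV5), 4 were higher in both (ETV3, ELK3, ELK4 and ERF), and 1, ETS2, was called in opposite directions, among 17 tested in both lines. Of the 14902 genes tested in both lines, 10.5% were lower in both, 9.11% were higher in both and 3.34% were called in opposite directions. The ETS genes did not move as one group.

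The partners and cofactors of ETS proteins, 18 genes, showed 6 higher and 3 lower of 16 tested in 6T-CEM (median log2 change 0.17) and 8 higher and 3 lower of 17 in J.gamma1 (median 0.26). Those calls were 56.25% and 64.7% of the partners tested, beside 31.3% and 51.5% of all genes tested. RUNX1, which binds DNA together with ETS1, was lower in both, by -0.33 ± 0.05 (adjusted p = 2.39e-04) and -0.97 ± 0.05 (adjusted p = 1.81e-07) on the log2 scale, and the difference of -0.64 ± 0.07 passed (adjusted p = 8.71e-05). HDAC3, a corepressor deacetylase, was lower as well (-0.24 and -0.50). IRF8, which binds composite sites with SPI1, rose from 20 and 15 counts to 98 and 97 in 6T-CEM and from 54 and 46 to 214 and 260 in J.gamma1, by 2.35 ± 0.33 and 2.38 ± 0.21. JUN rose by 1.13 ± 0.14 and 0.26 ± 0.07, CREBBP by 0.44 and 0.35, and GABPB2 by 0.68 and 0.75. GABPB1, the activating partner of GABPA, fell in 6T-CEM by 0.47 on the log2 scale (adjusted p = 5.79e-05) and was at 0.09 in J.gamma1 (adjusted p = 0.335). It shares 424 exon bases with its antisense RNA GABPB1-AS1, which rose by 0.39 and 0.65. EP300 was called higher in 6T-CEM (0.35, beside 0.12 in J.gamma1), CBFB, SRF and L3MBTL1 in J.gamma1 (0.16, 0.42 and 0.57), and SIN3A was lower in J.gamma1 (-0.19). In J.gamma1 the call of JUN was lost with DESeq2 (adjusted p = 0.0545) and without sh-LDB1 replicate 2, which also ended those of SIN3A and CBFB. There the calls of CBFB and L3MBTL1 were lost with DESeq2 (adjusted p = 0.0868 and 0.195), with no filter on low counts (edgeR adjusted p = 0.074 and 0.0657), in the joint fit to all 8 libraries (edgeR adjusted p = 0.168 and 0.119) and without sh-LDB1 replicate 1 or sh-NC replicate 2. In 6T-CEM the calls of GABPB2 and HDAC3 were lost without sh-LDB1 replicate 1 or sh-NC replicate 2, that of GABPB2 also with no filter (edgeR adjusted p = 0.0511), and that of EP300 without sh-NC replicate 1.

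**Figure D4:**
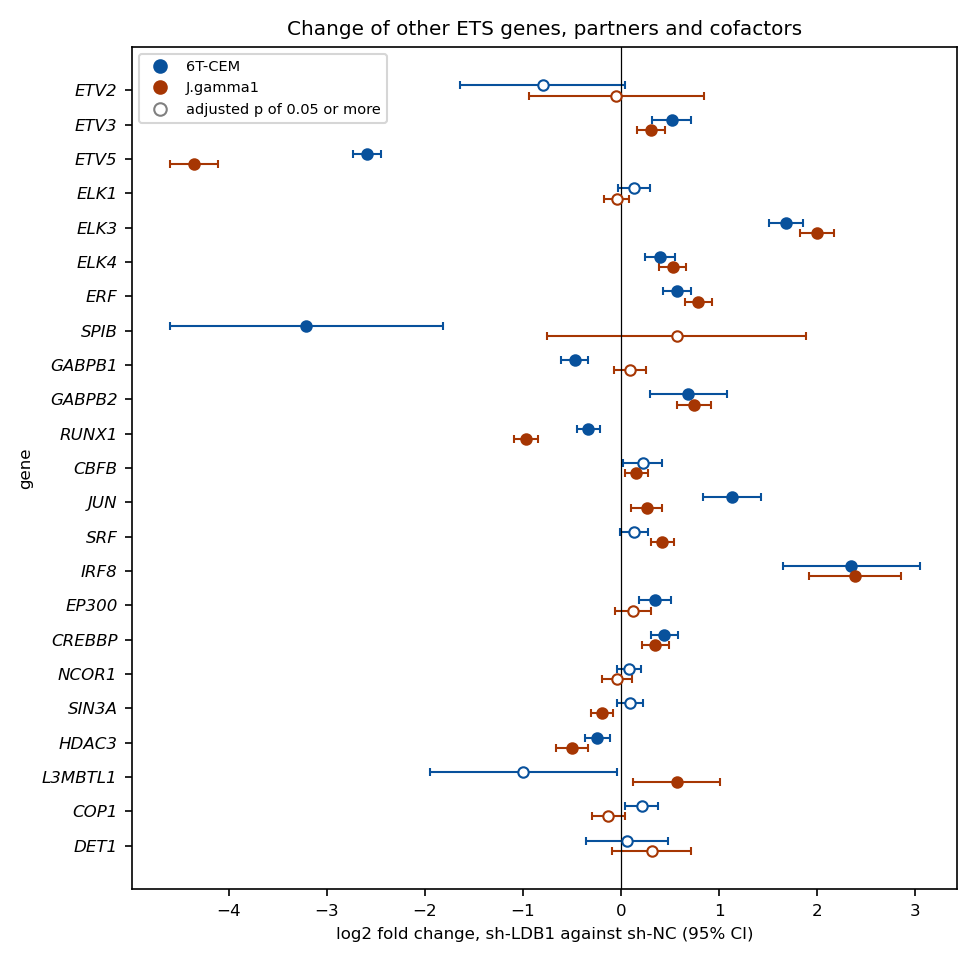
Log2 fold change of sh-LDB1 against sh-NC (horizontal axis, 95% confidence intervals) for other ETS genes and ETS partners and cofactors that were tested in both lines (vertical axis); 6T-CEM is blue, J.gamma1 orange-brown, and open circles did not pass the test. ELK3 and IRF8 lie far to the right in both lines, and ETV5 far to the left at -2.59 and -4.36.

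The 20 textbook targets, known from other cells, gave 2 higher and 1 lower of 10 tested in 6T-CEM (median log2 change 0.04) and 5 higher and 2 lower of 13 in J.gamma1 (median 0.52). The calls, 3 of 10 and 7 of 13, were close to the shares called over all genes tested (31.3% and 51.5%), so the counts set the targets apart in neither line, and single genes are given as their own values. IL7R, a GABPA target that encodes the interleukin 7 receptor, rose by 0.34 ± 0.07 and 1.75 ± 0.09, a difference of 1.41 ± 0.11 (adjusted p = 4.66e-06). GABPA itself was at 0.03 and 0.50. TFAM and TFB2M, mitochondrial transcription factors and further GABPA targets, rose in J.gamma1 by 0.52 ± 0.06 and 0.50 ± 0.09 and did not pass in 6T-CEM (0.09 and -0.03), while TFB1M fell in 6T-CEM by 0.67 on the log2 scale (adjusted p = 0.00898), a call lost without 6T-CEM sh-NC replicate 2, which left 0 targets called lower. TFB1M shares 1264 exon bases with TIAM2 on the other strand (at most 100 counts). COX4I1, in the same pathway, was called in neither line. IL2RB, an ETS1 target and interleukin 2 receptor chain, had 65 and 36 counts against 107 and 107 in 6T-CEM and 43 and 32 against 151 and 196 in J.gamma1, a rise of 0.95 ± 0.30 and 2.35 ± 0.26, while ETS1 fell. The 6T-CEM call of IL2RB was lost with DESeq2 (adjusted p = 0.116), with no filter on low counts (edgeR adjusted p = 0.103) and without sh-NC replicate 2 or either sh-LDB1 library. The ELF4 targets KLF2, a quiescence factor, and PRF1, which encodes perforin, went opposite ways in J.gamma1, by -1.19 ± 0.13 and 0.89 ± 0.16. PRF1 shares 197 exon bases with PALD1, which changed by 0.58 in that line. ITGA2B, a megakaryocyte integrin regulated by FLI1 and ERG, fell in J.gamma1 from 85 and 93 counts to 4 and 20 (adjusted p = 0.0019). GP9 and PF4, from the same set, were at 0 in every library. ITGA2B is also one of 8 megakaryocyte and erythroid markers, whose sum went from 14.7 to 16.6 CPM in J.gamma1 sh-NC to 5.11 to 7.50 CPM in sh-LDB1, and from 5.94 to 7.04 CPM to 4.56 to 5.67 CPM in 6T-CEM. The 3 of these tested in J.gamma1, ITGA2B, the erythroid factor KLF1 (15 and 31 counts against 0 and 5) and the erythropoietin receptor EPOR, were all lower, by -2.74, -3.01 and -1.09 on the log2 scale. Over all genes tested there, 26.5% were called lower. The other 5 markers were tested in neither line. In 6T-CEM only EPOR was tested, and it was not called (-0.28, adjusted p = 0.367). The part of this marker change in the value of ITGA2B was not tested.

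ERG and ETS2 are neighbours on chromosome 21, 143402 bases apart, and ETS1 and FLI1 on chromosome 11, 98976 bases apart (GENCODE 44, GRCh38). Within each pair the genes differed in their changes. ERG occupies chromosome 21, 38380027 to 38661780 on the minus strand, and ETS2 38805183 to 38824955 on the plus strand. ETS1 occupies chromosome 11, 128458761 to 128587558 on the minus strand, and FLI1 128686535 to 128813267 on the plus strand. Within 1 Mb of ERG and ETS2, 2 of 6 tested genes fell in 6T-CEM. In J.gamma1 10 were tested, 1 of which rose and 5 fell, at -0.43 for DYRK1A and BRWD1, -0.36 for GET1, -1.56 for LCA5L and the value of HMGN1 that follows. The genes called in both lines were PSMG1, a proteasome assembly chaperone, at -0.33 ± 0.06 and 0.26 ± 0.07, the same signs as ETS2, and HMGN1, a nucleosome-binding protein, at -0.17 and -0.12. Near ETS1 and FLI1, 3 genes were tested in 6T-CEM and none passed. In J.gamma1, of 6 tested, KCNJ5-AS1 (1.07) and DNAJB6P1 (0.48, adjusted p = 0.0486) were higher and ARHGAP32 was lower (-0.60, beside -0.60 for ETS1). Over all genes tested, 16.2% were called lower and 31.3% either way in 6T-CEM. In J.gamma1 26.5% were called lower, 25.0% higher and 51.5% either way. With so few genes, these counts do not set the neighbours apart from all genes. The genes called in J.gamma1 alone were named after their values were seen.

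**Figure D5:**
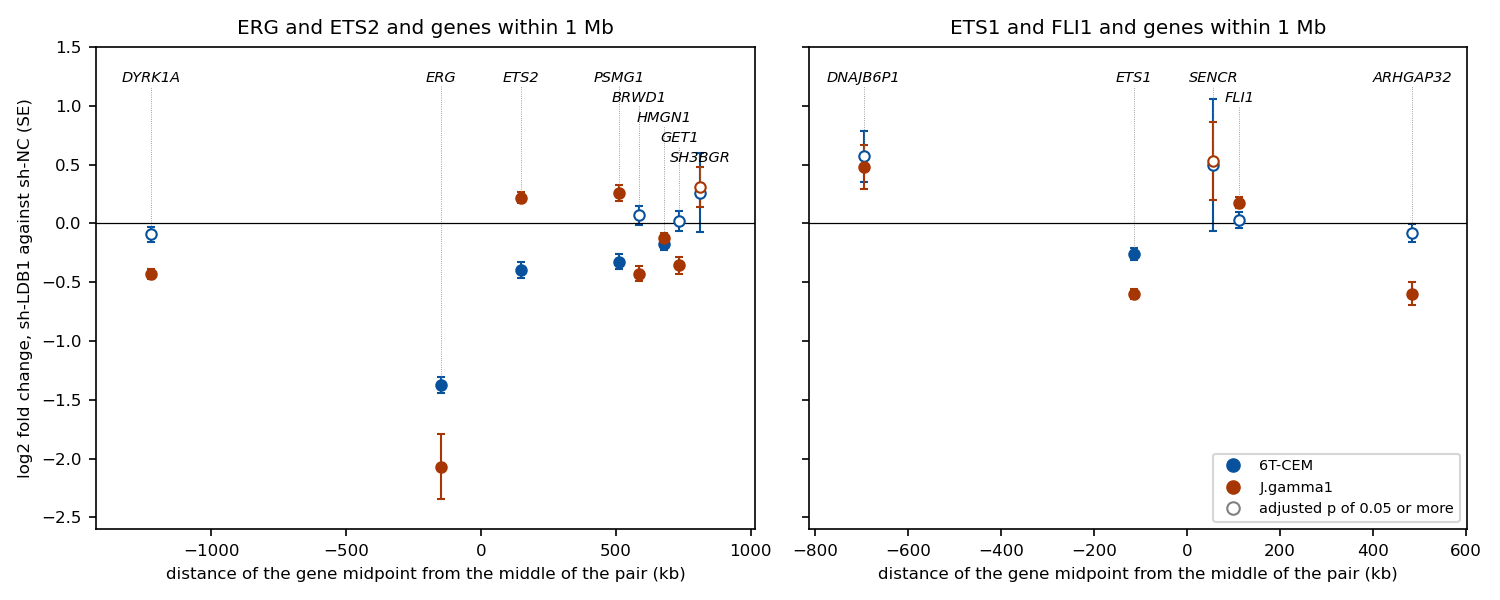
Log2 fold change of sh-LDB1 against sh-NC (vertical axis, bars are SE) for the paired ETS genes and their neighbours within 1 Mb that were tested in both lines, by distance in kb from the middle of the pair (horizontal axis); 6T-CEM is blue, J.gamma1 orange-brown, and open circles did not pass. ERG lies at -1.37 and -2.07, below every neighbour shown, and ETS2 and PSMG1 are on opposite sides of 0 in the lines.

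For each member tested in both lines, the genes with the most similar profile over the 8 libraries were taken, among 11968 genes. Likeness was measured by Pearson's r of log2 CPM, which takes no account of level or of the size of a change. The libraries fall into 2 lines, so r carries the difference between the lines as well as the knockdown and is given as a description. Among the genes that matched ERG most closely were CTSH and NOTCH1 (each r = 0.999), whose log2 values for J.gamma1 control cells against 6T-CEM control cells and for the knockdown in each line were all negative, like those of ERG. NOTCH1, the receptor activated in much of T-ALL, changed by -0.52 in 6T-CEM and -0.88 in J.gamma1. FLI1 was matched by DUSP3, GIT2 and PICALM (r = 0.997 to 0.998), and ETS1 by PCBP2, CHAF1A and GAS7 (r = 0.996 to 0.997). ETS2 was closest to SLC39A14, PIK3CB and PHKB (r = 0.993 to 0.996), which share its opposite signs: SLC39A14 changed by -0.81 and 0.27. ETV6 was matched by MESD, DPY19L3 and GANAB (r = 0.993 to 0.997). For ELF1 the genes were TRIM22, SCART1 and EIF5B (r = 0.996 to 0.998), and for ELF4 they were MIAT, FAF2 and BATF (r = 0.993 to 0.997). TRIM22 changed by 3.62 on the log2 scale in J.gamma1, a far larger rise than that of ELF1. ELF2 was matched less closely by TINF2, CANT1 and ENSG00000267598 (r = 0.960 to 0.970), and GABPA by TRMT10A, NAPEPLD and FAM104B (r = 0.968 to 0.988).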

How the data were processed

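RNA sequencing of 8 libraries (4 groups of 2) was used. Per the submitters' processing notes, HISAT2 2.2.0 was the aligner, StringTie the quantifier and hg38 the genome. The authors deposited 1 table per cell line of whole-number counts, without normalization or pooling. Strand use and the treatment of reads shared between genes are not given in the sources used here, so overlapping genes are uncertain.

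Counts were fitted with edgeR 4.0.16 (R 4.3.3, limma 3.58.1): TMM scaling, filterByExpr, robust quasi-likelihood fits per line, and adjustment of p by Benjamini and Hochberg across every gene tested, with calls at an adjusted p under 0.05. Differences between the lines came from a fit to all 8 libraries. SE was derived from the F statistic. CPM and FPKM used one TMM scaling of the 8 libraries, and FPKM the union of GENCODE 44 exons. Total counts of 26160492 to 30604977 and biological coefficients of variation of 9.68% (6T-CEM) and 9.16% (J.gamma1) set the precision, and replicates were not duplicates (chi-square per degree of freedom 7.04 to 11.7). The floor of 3 counts covers counting error only. Scripts were tested on simulated data.

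The rule for the members uses no measured value, but the members and lists were proposed and chosen with earlier results of these data known. The text names the members, LDB1, list genes called in at least 1 line, neighbours called in both lines, overlapping genes and the 3 most similar genes, with at least 50 counts per library on average. A few of these genes are not reported here, in text or figures. Alternatives were DESeq2 1.42.0 as test, its size factors, no filter, the replicate number as a block, a joint fit, leaving out each library, and the longest transcript as length. Figures were drawn with matplotlib 3.10.9 in Python 3.11.15.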

Additional observations from a re-analysis of the deposited data

Results flagged for a closer look

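Several genes of the lists changed differently in the lines by the interaction test (J.gamma1 change minus 6T-CEM change, log2, adjusted p under 0.05 over 18552 genes, 24.4% of which passed). Among the members these differences were -0.70 for ERG, -0.34 for ETS1, 0.61 for ETS2, 0.33 for ELF1 and 0.46 for GABPA. Among the other ETS genes they were -1.77 for ETV5, 0.32 for ELK3 and 3.78 for SPIB, the last resting on 2 and 4 counts in 6T-CEM sh-LDB1. Partners and cofactors gave 0.56 for GABPB1, -0.64 for RUNX1, -0.87 for JUN, 0.28 for SRF, -0.29 for SIN3A, 1.56 for L3MBTL1 and -0.34 for COP1. L3MBTL1 shares 3370 exon bases with ENSG00000288000. The targets gave 0.42 for TFAM, 0.53 for TFB2M, 1.41 for IL7R, 1.39 for IL2RB and -1.55 for KLF2. The fold change of LDB1 itself was smaller in J.gamma1, by 0.70, and the part of that difference in these values was not tested.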

How the results depend on the processing

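ERG, ETS1 and ETV6 kept their fall in both lines, and ETS2 its opposite signs, past the threshold under every alternative run, including DESeq2's size factors. With the DESeq2 test, 1 other ETS gene was called lower and 1 target higher in 6T-CEM and 5 partners were higher in J.gamma1, and with no filter 1 target was higher in 6T-CEM. Over all 9 alternatives run for that line, 1 to 3 targets were called higher, beside 2 in the main fit. DESeq2 gave SPIB no adjusted p in 6T-CEM, and it did not call IL2RB there or JUN, CBFB and L3MBTL1 in J.gamma1. Values near 0 changed sign: ELF1 in 6T-CEM with DESeq2 (0.0030), and, leaving out 1 library, GABPA in 6T-CEM (-0.068 to 0.131), ELF2 in J.gamma1 (-0.0035 to 0.112), the ETV6 difference between the lines (-0.192 to 0.0115) and ELF2 between control cells (-0.031 to 0.0886). Leaving out 1 library gave 1 to 2 members with a more negative change in J.gamma1, 1 to 2 targets higher and 0 to 1 lower in 6T-CEM, and 1 to 2 other ETS genes lower in J.gamma1. Among these, the count of other ETS genes lower in J.gamma1 was 1 without sh-LDB1 replicate 2, and targets higher in 6T-CEM were 1 without sh-NC replicate 2 or either sh-LDB1 library. The cause was not tested. By the longest transcript, 5 of 10 members kept their place in 6T-CEM sh-LDB1, 8 in 6T-CEM sh-NC, 7 in J.gamma1 sh-LDB1 and 10 in J.gamma1 sh-NC.

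Same-numbered libraries did not deviate together over all genes (correlation -0.04 in 6T-CEM and -0.03 in J.gamma1). This cannot tell whether they were handled as pairs. With the replicate block, members stayed at 1 higher and 5 lower in 6T-CEM and 5 higher and 3 lower in J.gamma1, and no call of a member changed. At 0 to 47 counts SPI1 is limited by depth.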
